A study of Homo sapiens with 2 samples.

Results

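The 10 genes described here are serum response factor (SRF), its actin-regulated cofactors MRTFA and MRTFB, and 7 genes of the actin cytoskeleton that SRF is known to control, namely ACTB, ACTG1, TAGLN, TPM1, VCL, FLNA and MYL9. They were taken by symbol from the 19927 gene rows, and all 10 had a row. Messenger RNA was sequenced from Huh7, an established human hepatocellular carcinoma cell line grown in medium with 10% fetal bovine serum. The library shPPIL1 came from cells with a short hairpin RNA against PPIL1, and the library shControl from cells with a control hairpin, which are called WT in their genotype label. There was 1 library per group, of 41165401 reads for shPPIL1 and 41015345 reads for shControl. With 1 hairpin and 1 library on each side, an effect of losing PPIL1, an effect of the hairpin sequence and a difference between cultures cannot be told apart, no test between conditions was possible, and no p-value is given.

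SRF is a transcription factor of the MADS-box family that binds CArG boxes, short stretches of A and T bases flanked by a pair of C and a pair of G. The MRTF cofactors bind monomeric actin. When actin polymerises, they are released, enter the nucleus and switch on SRF targets, many of which encode actin and proteins that bind, crosslink or contract actin filaments. A separate class of SRF partners, the ternary complex factors, answers to ERK signalling and drives immediate-early genes such as FOS. In the liver, contractile targets such as TAGLN are best known from stellate cells and myofibroblasts, while ACTB and ACTG1 are made by nearly all cells.

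The CArG box is the sequence that ties the genes to SRF, so the promoters that hold one are shown. RefSeq (GRCh38.p14) promoter windows run from 250 bases before to 50 bases after the annotated start, and the reference table held 13 such windows for 7 of the 10 genes. ACTB, TAGLN and MYL9 had none in that table. A search on both strands for the box, with 6 bases of A or T in its core, found it in SRF, ACTG1 and FLNA. The stretches below are the last 100 bases before the annotated start, 5′ to 3′ on the strand of the gene, with the boxes in capitals.
SRF, chr6:43171169-43171268, plus strand: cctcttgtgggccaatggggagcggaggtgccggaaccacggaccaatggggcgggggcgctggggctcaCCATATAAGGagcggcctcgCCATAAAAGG
ACTG1, chr17:81512800-81512899, minus strand: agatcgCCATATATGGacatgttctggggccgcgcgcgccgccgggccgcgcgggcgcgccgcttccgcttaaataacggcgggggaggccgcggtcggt
FLNA, chrX:154374635-154374734, minus strand: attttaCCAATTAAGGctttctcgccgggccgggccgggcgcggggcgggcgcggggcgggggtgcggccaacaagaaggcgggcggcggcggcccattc

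The promoter of SRF itself held 2 boxes, which start 30 and 10 bases before the RefSeq start. The single boxes of ACTG1 and of FLNA both start 94 bases before it. Of all 35116 promoter windows in the table, 454 held a box, or 1.29%, against 3 of the 13 windows of these genes. No box in a window says only that these letters are not there.

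PPIL1, the targeted gene and a cyclophilin of the spliceosome, had 104 reads in shPPIL1 and 1505 in shControl, or 1.67 and 24.2 FPKM (the authors' deposited unit, reads scaled to gene length and to library size). In shPPIL1 its scaled count was 6.79% of that in shControl (5.51 to 8.29% with counting error), which is the direction of the labels.

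Every ratio below is shPPIL1 over shControl, computed from reads scaled to TMM library sizes, with an exact 95% interval that covers counting error only. A gene was called higher or lower where that interval excluded 1, and a gene was kept where it reached 1 CPM (reads scaled to library size) in at least 1 library. Of the 10 genes, 9 were kept. TAGLN was not, at 0.965 CPM in shPPIL1 and 0.712 CPM in shControl. Over all 12540 kept genes 24.6% were higher, 26.4% were lower and 48.9% had an interval that included 1, with log2 ratios between -0.13 and 0.12 for the central 50% of them. Among the 9 kept members 3 were higher (MRTFA, ACTG1 and MYL9), 4 were lower (SRF, ACTB, TPM1 and FLNA) and 2 had an interval that included 1 (MRTFB and VCL). Their median log2 ratio was -0.05, against -0.0017 for all kept genes, and the members were split in direction.

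**Figure D1:**
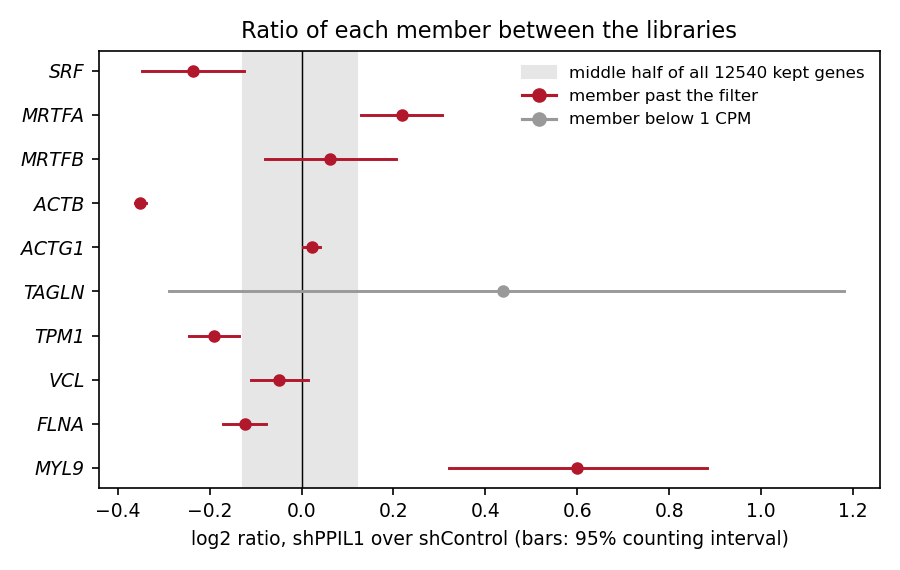
Points are log2 ratios of shPPIL1 over shControl for the 10 genes, with bars for the exact 95% counting interval, and the grey band is the middle 50% of all 12540 kept genes. ACTB at -0.35 stood farthest below the band and MYL9 at 0.60 farthest above it among kept members, while TAGLN (grey) had an interval that spanned 0.

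SRF was slightly lower in the knockdown library. It had 1247 reads (8.17 FPKM) in shPPIL1 and 1443 reads (9.48 FPKM) in shControl, a ratio of 0.849 (0.786 to 0.917) and a log2 ratio of -0.24. Of all kept genes, 13.1% had a ratio as low or lower. The gene lies on chromosome 6 from 43171269 to 43181506 and its transcript has 7 exons.

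The cofactors were not lower. MRTFA, the more abundant of the pair, had 2279 reads (12.7 FPKM) in shPPIL1 and 1925 reads (10.8 FPKM) in shControl, a ratio of 1.16 (1.09 to 1.24). Of all kept genes, 13.5% had a ratio as high or higher. MRTFB had 831 reads (2.53 FPKM) in shPPIL1 and 782 reads (2.39 FPKM) in shControl, a ratio of 1.04 with an interval that included 1 (0.946 to 1.15). Per gene length MRTFA stood at 5.04 times the level of MRTFB in shPPIL1 and at 4.52 times in shControl. MYOCD, the myocardin of cardiac and smooth muscle that gave the family its name, had 0 reads in shPPIL1 and 2 in shControl. A count of 0 allows up to 3 reads, so no difference was detectable at this depth. MRTFA lies on chromosome 22 from 40410289 to 40636719, and MRTFB on chromosome 16 from 13994774 to 14266779.

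Among the 10 genes, the largest change in reads was in ACTB, which encodes cytoplasmic beta-actin. It had 93030 reads in shPPIL1 and 116541 in shControl, which is 0.226% and 0.284% of all reads. The levels were 1247 FPKM in shPPIL1 and 1568 FPKM in shControl, and the rank of ACTB by FPKM among all rows was 29 in shPPIL1 and 18 in shControl. The ratio was 0.784 (0.778 to 0.791), or 1.28-fold lower, and 6.55% of kept genes had a ratio as low or lower. Among 749 kept genes with at least 10000 reads in shControl, a cut made after the values were seen, 15 (2.00%) were as low as ACTB.

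ACTG1, which encodes cytoplasmic gamma-actin, was nearly level. It had 47128 reads (599.7 FPKM) in shPPIL1 and 45584 reads (582.2 FPKM) in shControl. The ratio of 1.02 (1.00 to 1.03) was called higher by a bound of 1.003, and 44.1% of kept genes had a ratio as high or higher. The genes lie on different chromosomes, ACTB on chromosome 7 from 5527148 to 5530601 and ACTG1 on chromosome 17 from 81509971 to 81512799.

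Within a library the balance of the actins does not depend on scaling. ACTB made up 66.4% (66.1 to 66.6%) of the reads of the actin family in shPPIL1 and 71.9% (71.6 to 72.1%) in shControl. ACTG1 made up 33.6% (33.4 to 33.9%) in shPPIL1 and 28.1% (27.9 to 28.3%) in shControl. Per gene length ACTB stood at 2.08 times ACTG1 in shPPIL1 and at 2.69 times in shControl. All actins together had 140210 reads in shPPIL1 and 162179 in shControl, a ratio of 0.849 (0.843 to 0.855).

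The muscle actins were close to absent. ACTA1 of skeletal muscle had 37 reads in shPPIL1 and 34 in shControl, and ACTA2 of smooth muscle had 15 and 20. ACTC1 of heart, ACTG2 of visceral smooth muscle and ACTBL2 had 0 reads in both libraries. The actins resemble each other in sequence. Of 183 windows of 100 bases along an ACTB transcript, 0 matched a transcript of another locus exactly, and 19 (10.4%) matched over 50 bases, 8 of them with a gene of the count table, ACTG1 and ACTA1 among these. For ACTG1, 0 of 163 windows matched over 100 bases and 7 (4.29%) over 50. How reads with several possible origins were counted is not stated, and their part in the actin values was not tested.

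**Figure D2:**
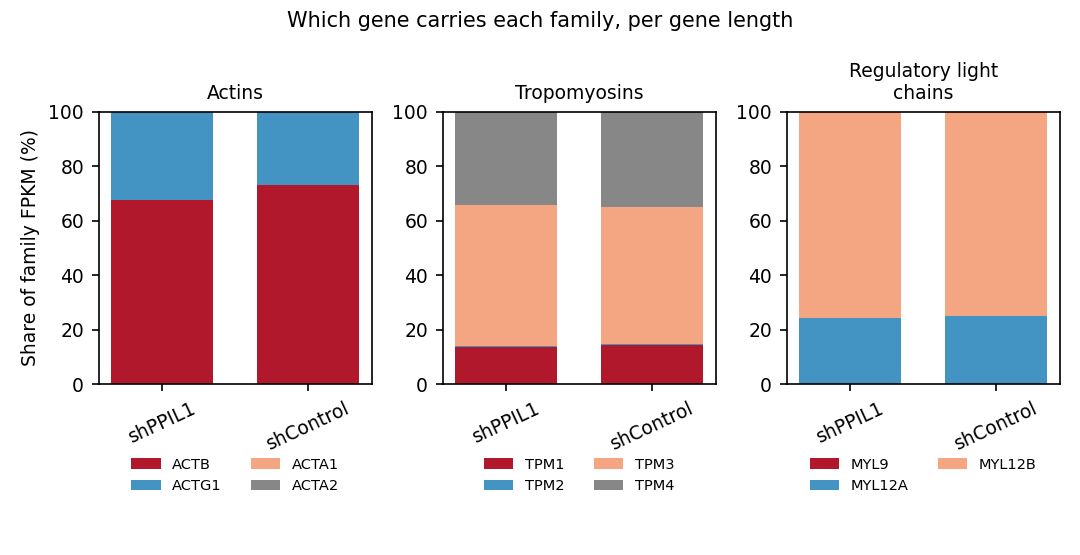
Stacked bars give the share of the summed FPKM of each family that each gene held, in shPPIL1 (left bar) and shControl (right bar), for actins, tropomyosins and myosin regulatory light chains. ACTB held 67.5% of actin FPKM in shPPIL1 and 72.9% in shControl, TPM1 held 13.7% and 14.5% of tropomyosin FPKM, and MYL9 held under 1% of regulatory light chain FPKM in both.

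TPM1 and FLNA, a filament-coating and a filament-crosslinking protein, were also lower, by less than ACTB. TPM1, an alpha-tropomyosin that lies along the actin filament, had 5163 reads (66.5 FPKM) in shPPIL1 and 5790 reads (74.8 FPKM) in shControl, a ratio of 0.876 (0.844 to 0.910). It held 13.7% of tropomyosin FPKM in shPPIL1 and 14.5% in shControl. The family was carried by TPM3 (ratio 0.959, 0.946 to 0.972) and TPM4 (0.911, 0.892 to 0.930), both called lower, so that all tropomyosins together had a ratio of 0.938 (0.928 to 0.948). TPM2, the isoform of smooth and skeletal muscle, had 61 reads in shPPIL1 and 72 in shControl. TPM1 lies on chromosome 15 from 63042747 to 63071915.

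FLNA, the filamin that links actin filaments to one another and to integrins, had 7194 reads (20.6 FPKM) in shPPIL1 and 7698 reads (22.1 FPKM) in shControl. Its ratio was 0.918 (0.889 to 0.948). FLNA lies on chromosome X from 154348531 to 154374634 and its transcript has 48 exons.

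VCL, which encodes the focal adhesion protein vinculin, was nearly level. It had 4209 reads (17.1 FPKM) in shPPIL1 and 4275 reads (17.4 FPKM) in shControl, a ratio of 0.967 with an interval that included 1 (0.927 to 1.01). It lies on chromosome 10 from 73998116 to 74121363. Its exons share 1109 bases (11.1% of them) with AP3M1, a gene on the opposite strand that had 2216 reads in shPPIL1 and 2267 in shControl. Whether the counting used strand is not given in the sources used here.

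MYL9 and TAGLN, the contractile members most typical of smooth muscle and myofibroblasts, were scarce, and both had more reads in shPPIL1. MYL9, a regulatory light chain of non-muscle and smooth muscle myosin, had 270 reads (2.42 FPKM) in shPPIL1 and 175 reads (1.58 FPKM) in shControl, a ratio of 1.52 (1.25 to 1.84). It was the 1 kept member past 1.5-fold, a mark that 2.02% of kept genes passed upward and 2.22% downward. On the scale of log2(FPKM + 1) its log2 difference was 0.41, below that mark. Of the kept members 0 passed 2-fold, which 0.526% of kept genes did upward and 0.518% downward, together 1.04%.

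TAGLN, the actin-binding transgelin of smooth muscle, had 40 reads (0.242 FPKM) in shPPIL1 and 29 reads (0.176 FPKM) in shControl. The ratio of 1.36 had an interval from 0.819 to 2.27, so no difference was detectable at this depth. Its exons share 446 bases (11.4% of them) with PCSK7 on the opposite strand, which had 922 reads in shPPIL1 and 694 in shControl (ratio 1.31, 1.18 to 1.44). The part of such reads in the TAGLN count was not tested. MYL9 lies on chromosome 20 from 36541519 to 36551447 and TAGLN on chromosome 11 from 117199294 to 117207465.

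Broadly expressed relatives made up nearly all of the reads of both families. TAGLN2 held 99.9% of transgelin FPKM in both libraries and had a ratio of 1.03 (1.01 to 1.05). MYL12B, the most abundant regulatory light chain, had 731.8 FPKM in shPPIL1 and 685.0 FPKM in shControl, a ratio of 1.05 (1.04 to 1.07). MYL9 made up 0.581% (0.514 to 0.654%) of regulatory light chain reads in shPPIL1 and 0.399% (0.342 to 0.462%) in shControl.

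**Figure D3:**
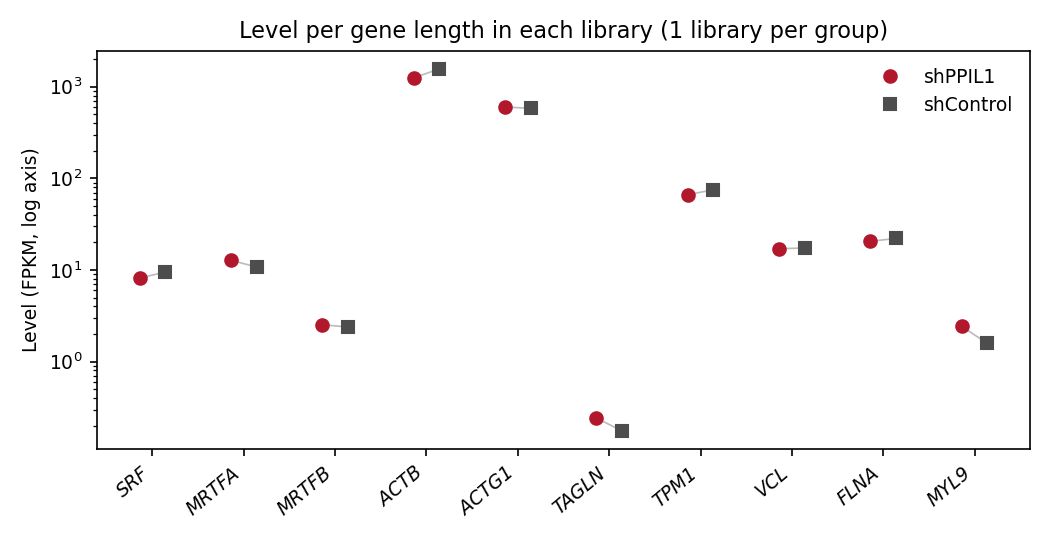
Points are FPKM on a log axis for the 10 genes in shPPIL1 (circles) and shControl (squares), 1 library each. ACTB (1247 and 1568 FPKM) and ACTG1 (599.7 and 582.2 FPKM) lay far above the other members, TAGLN lay lowest, and the order of genes was the same in both libraries.

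The order of levels per gene length was the same in both libraries, from ACTB through ACTG1, TPM1, FLNA, VCL, MRTFA, SRF, MRTFB and MYL9 down to TAGLN. In shPPIL1 the neighbours MRTFB (2.53 FPKM, 2.36 to 2.70) and MYL9 (2.42 FPKM, 2.14 to 2.73) overlapped in their counting intervals. In shControl the same pair was apart, with MRTFB at 2.39 FPKM (2.22 to 2.56) and MYL9 at 1.58 FPKM (1.35 to 1.83). The other neighbours did not overlap in either library. ACTB alone made up 57.6% of all member reads in shPPIL1 and 63.3% in shControl. Summed without ACTB, the other 9 members had 68361 reads in shPPIL1 and 67701 in shControl, a ratio of 0.992 (0.982 to 1.00). Of these reads 47128 and 45584 were from ACTG1, so the sum mostly follows that gene and hides changes in both directions among the others.

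Markers of hepatocytes and of other cell types were read beside the contractile members. Both libraries came from the Huh7 cell line, so reads of such a marker do not by themselves show cells of another type. In bulk RNA, fewer cells with a transcript and less of it per cell cannot be told apart. All 8 hepatocyte markers were kept, and they summed to 6679 FPKM in shPPIL1 and 6319 FPKM in shControl, with ALB at 3270 and 3203 FPKM. The 7 smooth muscle markers summed to 15.5 FPKM in shPPIL1 and 20.1 FPKM in shControl, nearly all of it from SMTN, and ACTG2 was at 0 in both. DES was at 0 reads in shPPIL1 and 4 in shControl, and CNN1 at 2 and 0. Without SMTN, a split made after the values were seen, the remaining 6 had 61 reads in shPPIL1 and 23 in shControl (ratio 2.61, 1.59 to 4.41). MYH11 gave 34 and 11 of these reads, and all 6 genes were below 1 CPM in both libraries. The 8 stellate cell and fibroblast markers had 2040 reads in all in shPPIL1 and 1954 in shControl, mostly from LUM and COL1A1, with COL1A2 at 0 in both and COL3A1 at 48 and 16 reads. The 5 endothelial markers summed to 1.36 FPKM in shPPIL1 and 1.58 FPKM in shControl, with KDR at 0 in both. The 5 leukocyte markers summed to 200.7 FPKM in shPPIL1 and 244.1 FPKM in shControl, mostly from LYZ, with PTPRC at 10 and 4 reads. MYL9 was higher, and so was COL3A1, which reached 1 CPM in shPPIL1 only (1.16 CPM, against 0.393 CPM in shControl). MYH11 also had more reads in shPPIL1 but was below 1 CPM in both libraries and so not kept. LUM (ratio 0.980) and COL1A1 (ratio 1.11) had intervals that included 1. The smooth muscle markers with SMTN had a ratio of 0.770 (0.728 to 0.815). The part of these markers in the value of MYL9 was not tested.

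A list of 42 further cytoskeletal and adhesion genes known as targets of SRF and MRTF was read in the same way. Of its 33 kept genes, 10 were higher, 11 were lower and 12 had an interval that included 1. Over all kept genes, 24.6% were higher and 26.4% lower. The list had a median log2 ratio of 0.01, next to that of all kept genes. On the list 0 were past 1.5-fold, a mark that 2.02% of all kept genes passed upward and 2.22% downward. SMTN, the actin-binding smoothelin, had 2099 reads in shPPIL1 and 2733 in shControl, a ratio of 0.755 (0.713 to 0.799). MYLK, the kinase that phosphorylates the light chain MYL9, had a ratio of 0.770 (0.704 to 0.843), and ACTN1, an alpha-actinin that crosslinks actin filaments, one of 0.856 (0.833 to 0.880). On the higher side SVIL, the membrane-bound actin- and myosin-binding supervillin, had 5184 reads in shPPIL1 and 3932 in shControl, a ratio of 1.30 (1.24 to 1.35). PDLIM1, an adaptor that binds alpha-actinin, had a ratio of 1.15 (1.12 to 1.17).

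The list was also read by whether the promoter window held a CArG box, as a description with no test of the difference. Of 41 listed genes with a promoter in the table, 15 held a box, against 1.60% of all 27305 genes, and such genes are often called targets because of the box. Of the 9 kept genes of the list with a box, 6 were lower, 1 was higher and 2 had an interval that included 1. Their median log2 ratio was -0.21. Over all 163 kept genes with a box, 30.1% were lower and 26.4% were higher, with a median of 0.02. The lower ones on the list were SMTN, MYLK and ACTN1 and, named here after their values were seen, CNN2, a calponin (ratio 0.848), MYO1E, a class I myosin (0.866), and TPM4. The higher one was SVIL. Of the 23 kept genes of the list without a box, 5 were lower, 8 were higher and 10 had an interval that included 1, with a median of 0.02. Among the members with a box, SRF and FLNA were lower and ACTG1 was not, and TPM1, with no box in its window, was lower as well.

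**Figure D4:**
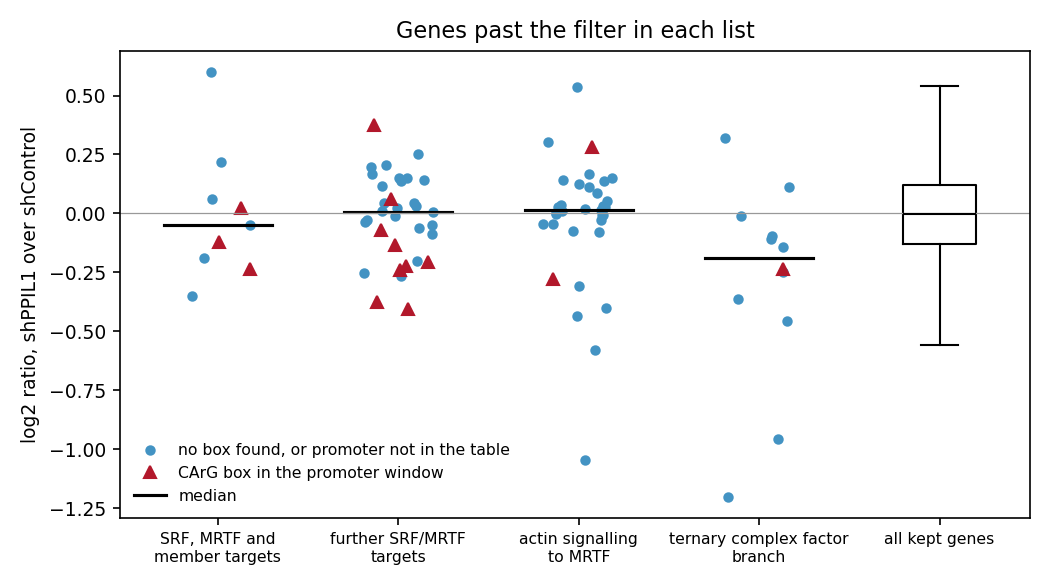
Points are log2 ratios of shPPIL1 over shControl for the kept genes of each list, triangles mark genes with a CArG box in the promoter window, and black lines are medians. The box on the right gives the middle 50% of all kept genes with whiskers around the middle 95%. Among the further targets most triangles lay below 0, whereas the median over all 163 kept genes with a box was 0.02. The ternary complex factor list had the lowest median, at -0.19.

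The regulators that set the actin signal to MRTF were mixed. Of 36 listed genes of the small GTPase, formin and cofilin pathways, 33 were kept, with a median log2 ratio of 0.02. Among these 11 were higher, 9 were lower and 13 had an interval that included 1. The shares over all kept genes were 24.6% higher and 26.4% lower. MICAL2, which oxidises nuclear actin and is known to promote MRTF activity, had 3236 reads in shPPIL1 and 4300 in shControl, a ratio of 0.739 (0.706 to 0.774). Among the formins, which nucleate actin filaments, DIAPH1 and FMNL2, named here for their higher level, changed little. DIAPH1, at 49.7 FPKM in shPPIL1 and 49.0 FPKM in shControl, had an interval that included 1 (ratio 1.00, 0.976 to 1.03). FMNL2, at 30.3 and 31.5 FPKM, was lower at 0.947 (0.916 to 0.980). Larger changes, in both directions, were seen in DIAPH2, FMNL3 and FHOD3, all below 1 FPKM in both libraries. DIAPH2 reached 1 CPM in shControl only (1.89 CPM, against 0.917 CPM in shPPIL1). DIAPH2 had 38 reads in shPPIL1 and 77 in shControl (ratio 0.485, 0.320 to 0.724) and FMNL3 a ratio of 0.669 (0.520 to 0.859), whereas FHOD3 had 220 and 149 reads, a ratio of 1.45 (1.17 to 1.80). RND3, an atypical small GTPase that opposes the kinase ROCK1, had a ratio of 1.22 (1.17 to 1.27), and PHACTR2, a phosphatase partner that binds actin through the same kind of motif as the MRTFs, one of 1.23 (1.15 to 1.32). Cofilin, CFL1, stood at 866.0 FPKM in shPPIL1 and 848.1 FPKM in shControl, with an interval that included 1 (ratio 1.01, 0.994 to 1.02).

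In the other arm of SRF, most kept immediate-early targets were lower, and the ternary complex factors were not. Of 15 listed genes 12 were kept, of which 8 were lower, 2 were higher and 2 had an interval that included 1, with a median log2 ratio of -0.19. Of all kept genes 26.4% were lower and 24.6% higher. The 2 higher genes of the list were ternary complex factors themselves, ELK1 with 1335 reads in shPPIL1 and 1050 in shControl (ratio 1.25, 1.15 to 1.36) and ELK4 (ratio 1.08, 1.00 to 1.17). ELK3, of the same class, had a ratio of 0.993 with an interval that included 1 (0.873 to 1.13). FOSB and FOS, targets of these factors, had ratios of 0.435 (0.354 to 0.533) and 0.515 (0.464 to 0.570). DUSP5, a phosphatase that inactivates ERK, had 1248 reads in shPPIL1 and 1683 in shControl, a ratio of 0.729 (0.677 to 0.784). FOSB was the 1 kept gene of the list past 2-fold, a mark that 1.04% of all kept genes passed in either direction. FOSL1, a FOS relative below the 1 CPM limit and so not kept, had 17 reads in shPPIL1 and 5 in shControl, a ratio of 3.34 (1.18 to 11.6).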

How the data were processed

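The files hold 1 table of unnormalised read counts and 1 FPKM table per library, all deposited by the authors. Per the submitters' processing notes the genome build was hg38; the aligner, the counter and the annotation are not stated. In the deposited FPKM, the count divided by library total and FPKM gave a whole gene length, within 0.01 bases, for 100% of genes with reads in both libraries. The count table held 7 further columns that match no label and were not used. Library sizes were scaled by TMM in edgeR 4.0.16 (R 4.3.3), with DESeq2 1.42.0 size factors as an alternative, and ratios carry exact Clopper-Pearson 95% intervals. PCR copies are not independent molecules, so these cover counting error only. The steps were run on simulated Poisson counts, which hold counting error only and cannot speak to variation between cultures or PCR copies. The 10 genes and the lists were chosen with earlier results of these data known. From each of the 4 further lists (targets, regulators, ternary complex factor branch, gene families), up to 3 higher and 3 lower genes with the most extreme inner interval bound were eligible for naming, and not all are named. With 2 libraries no gene could be named for a like pattern. Overlaps and shared sequence used GENCODE 29 (GRCh38), positions RefSeq. Some results are not reported here.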

Additional observations from a re-analysis of the deposited data

How the results depend on the processing

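Across other scalings, filters and FPKM pseudocounts, 137 of 148 recomputed values stayed within counting error of those reported (counts of genes within 1.5 times), and 0 of the called genes changed direction. A filter cannot change the ratio of a single gene, so under the other filters those ratios were the same by construction. Medians of lists were held against the typical counting error of a single gene, which is not the error of a median. ACTB had a log2 ratio of -0.33 with total counts, -0.32 with total counts without mitochondrial genes and -0.33 with either FPKM pseudocount. ACTG1 had 0.043, 0.049 and 0.043 in the same order. With log2(FPKM + 1), PPIL1 stood at -3.24 and 0 members passed 1.5-fold upward. With total counts without mitochondrial genes TAGLN passed the filter and the members' median was 0.014. The cause was not tested, except that a pseudocount shrinks low values and that another library size shifts all genes alike. No member transcript shared a window of 100 bases with another locus, so no sum with near-identical copies could be made. No paired analysis was possible because each group holds 1 library, and none could be left out. TAGLN was limited by depth.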

Other observations

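The CArG box was also counted over all kept genes, as a description with no test. Of 163 kept genes with a box in the promoter window, 43 were higher and 49 were lower by their counting interval (26.4% and 30.1%), with a median log2 ratio of 0.02. Of 10110 kept genes whose windows held none, 24.4% were higher and 26.9% lower, with a median of -0.0028.

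MADS-box relatives of SRF and relatives of vinculin were also measured. MEF2A had a ratio of 1.11 (1.03 to 1.19) and MEF2C one of 1.14 (1.03 to 1.26), both called higher, and MEF2D one of 1.03 (0.961 to 1.10). CTNNA1, the alpha-catenin of cell junctions, had a ratio of 0.984 (0.964 to 1.00), and CTNNAL1, alpha-catulin, was lower at 0.824 (0.780 to 0.871).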
